A study of Mus musculus with 79 samples.

Results

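The genes described are 10 targets of the transcription factor p53: Cdkn1a, Mdm2, Ccng1, Bbc3, Bax, Gdf15, Phlda3, Trp53inp1, Sesn1 and Eda2r. They were found by gene symbol, through the symbols that the study's tables and the RefSeq gene table give for the rows of the expression table, and 9 of the 10 had a row among 31350 rows, 1 row each. No row could be matched to Gdf15, a secreted growth factor of the TGF-beta family, which was not analysed here. The rule that matches them to rows uses no measured value.

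The data came from whole-lung RNA of 79 mice hybridised to 79 arrays, 1 per mouse. The mice were 5 to 7 weeks old and on the C57BL/6J background, and all of them, sham controls included, spent time in the same exposure chamber. Smoke-exposed mice breathed the smoke of 6 reference cigarettes a day and sham mice breathed room air, for 1 day or for 5 days, and the right lung was taken 4 hours after the last exposure. WT mice were compared with βENaC littermates, which overexpress Scnn1b, the β subunit of the epithelial sodium channel, from a transgene driven in the airway epithelium, and develop airway mucus obstruction and inflammation, a model of chronic bronchitis. Males and females were included in each group, which gave 16 groups of 4 to 6 mice. There were 20 smoke and 20 sham mice at 1 day, and 19 and 20 at 5 days. Values are log2 intensities, the logarithm of the brightness of a gene's probes, and the brightness of one gene's probes cannot be set against that of another's. Differences are on the same log2 scale, and "rose" or "higher" is used where limma gave an adjusted p below 0.05 over all 31350 rows.

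p53, encoded by Trp53, is held at a low level by the ubiquitin ligase Mdm2 and accumulates when DNA is damaged or the cell is otherwise stressed. It then binds a repeated short sequence near its target genes and raises their transcription. The targets divide by role into genes that halt the cell cycle, genes that promote apoptosis, genes that limit oxidative damage or growth signalling, and genes such as Mdm2 that feed back on p53 itself. p53 is regulated largely at the level of protein, which was not measured here.

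Each array's Scnn1b signal followed the genotype of the sample title without overlap, at 11.52 to 11.88 in the 39 βENaC mice and 8.42 to 9.47 in the 40 WT mice, although the source name of 13 samples gives the other genotype. Array medians lay between 4.44 and 4.55. One mouse stood apart from its group in several of the genes described and is named here before the results: replicate 2 of the WT smoke-exposed females at 5 days. It had the highest value of all 39 mice at 5 days for Cdkn1a (11.34, the next mouse 9.98), Trp53inp1 (10.57, the next 9.32) and Sesn1 (8.78, the next 7.97). It also had the lowest value of all 39 for Ccng1 (9.80) and ranked 38 of 39 for both Bax (6.63) and Phlda3 (6.39). Its mean level over 9 glucocorticoid-response genes was 10.04, against 8.17 to 9.20 in the other 38 mice at 5 days. Its mean level was also the lowest of all 39 for the monocyte (6.84, the others from 7.34) and T cell markers (5.34, from 5.63). The same held for the fibroblast (9.07, from 9.33) and alveolar type 2 markers (11.61, from 11.62). For the neutrophil markers it ranked 2 of 39 (8.43), and the other marker lists lay within the range of the other mice. The 5-day values of the genes it moved are given with and without this mouse.

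The promoters were searched for a short unit of the p53 recognition sequence in the 250 bases before the start of transcription. Sequence outside these 250 bases was not searched in the genes described. RefSeq promoter windows (build GRCm38.p6) were matched for 9 of the 10 genes, 14 windows in all, since some genes have several annotated starts. Trp53inp1 had no entry. A window was searched for the p53 half-site, the 10-base unit of which 2 copies make a full response element, on both strands (the unit reads alike on both). In the 250 bases before the start, 7.13% of 32851 windows of all genes held at least 1 match and 0.25% held 2 that do not overlap. Among the genes described, 5 had a match, in 5 of the 14 windows: Cdkn1a, Mdm2, Ccng1, Bax and Sesn1. Bbc3, Phlda3, Eda2r and Gdf15 had none of these letters in this window. The 5 sequences are shown because they carry the matches, which are in capitals, and each runs 5′ to 3′ on the strand of its gene and ends at the base before the start that the promoter table uses, counted as position −1. For Ccng1 and Bax that start lies inside the gene span given with their values, so those sequences overlap the outer end of the span.
Cdkn1a: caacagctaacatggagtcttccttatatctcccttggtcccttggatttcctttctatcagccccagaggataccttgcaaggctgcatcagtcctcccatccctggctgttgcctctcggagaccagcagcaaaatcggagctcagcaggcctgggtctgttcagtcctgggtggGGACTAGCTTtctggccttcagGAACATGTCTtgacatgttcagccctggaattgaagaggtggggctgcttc
Mdm2: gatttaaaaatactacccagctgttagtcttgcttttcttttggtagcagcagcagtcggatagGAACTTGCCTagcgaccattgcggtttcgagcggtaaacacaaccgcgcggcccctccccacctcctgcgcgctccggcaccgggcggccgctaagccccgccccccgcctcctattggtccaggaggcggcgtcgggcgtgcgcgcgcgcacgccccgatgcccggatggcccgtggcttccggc
Ccng1: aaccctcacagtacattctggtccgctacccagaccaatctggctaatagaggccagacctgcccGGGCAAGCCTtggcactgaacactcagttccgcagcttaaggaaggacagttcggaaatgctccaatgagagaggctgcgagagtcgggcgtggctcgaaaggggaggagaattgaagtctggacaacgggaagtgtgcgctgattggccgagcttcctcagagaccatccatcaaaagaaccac
Bax: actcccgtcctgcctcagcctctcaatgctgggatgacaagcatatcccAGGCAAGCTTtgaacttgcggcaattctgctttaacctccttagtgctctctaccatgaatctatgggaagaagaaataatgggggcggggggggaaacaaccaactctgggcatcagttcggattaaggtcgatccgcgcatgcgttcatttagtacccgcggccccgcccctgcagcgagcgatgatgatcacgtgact
Sesn1: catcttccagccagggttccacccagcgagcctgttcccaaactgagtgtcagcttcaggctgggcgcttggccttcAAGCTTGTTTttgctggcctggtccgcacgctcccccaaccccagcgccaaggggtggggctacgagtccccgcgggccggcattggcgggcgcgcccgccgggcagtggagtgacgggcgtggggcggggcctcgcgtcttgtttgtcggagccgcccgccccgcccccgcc
The Cdkn1a sequence lies at chr17:29090729-29090978 on the plus strand, and its 2 matches begin at −73 and −51. It was the only one of the 14 windows with 2 matches, and the window at the second annotated start of Cdkn1a had none. The Mdm2 sequence lies at chr10:117710759-117711008 on the minus strand, with the match at −186. The Ccng1 sequence lies at chr11:40755287-40755536 on the minus strand, with the match at −185. The Bax sequence lies at chr7:45466899-45467148 on the minus strand, with the match at −201. The Sesn1 sequence lies at chr10:41887189-41887438 on the plus strand, ahead of the second annotated start, with the match at −173, and the window at the first start had none. A match is a description of the letters and does not show binding.

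After 1 day of smoke, 3 of the 9 genes rose and none fell: Cdkn1a, Mdm2 and Trp53inp1. Over all rows, 9.45% passed the same test at 1 day, 5.03% higher and 4.43% lower in smoke mice. The median difference was 0.09 over the 9 genes and 0.01 over all rows, and 7 of the 9 differences were above 0. Cdkn1a alone also passed the 1.3-fold threshold that the study's methods use, which 1.08% of all rows passed. In a homogenate of the whole lung, more cells that express a gene and more RNA per cell cannot be told apart.

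Cdkn1a (NM_007669, chr17:29090979-29100722) encodes p21, the inhibitor of cyclin-dependent kinases that halts the cell cycle. At 1 day its log2 intensity ran from 8.79 to 10.19 in the 20 sham mice, with a median of 9.36. In the 20 smoke mice it ran from 9.23 to 10.71, with a median of 9.85. The ranges overlapped, yet each of the 20 smoke mice lay above the mean of the sham mice of its own genotype and sex, and 2 lay above every sham mouse. The difference was 0.48 ± 0.09 (SE; 1.4-fold, limma adjusted p = 0.00047). It was 0.45 in WT and 0.51 in βENaC mice, and the test of that difference gave 0.06 ± 0.18. It was 0.30 in females and 0.66 in males, a difference of 0.36 ± 0.18 with a limma adjusted p of 0.80, so no difference in the response between the sexes was called.

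Mdm2 (NM_001288586, chr10:117688875-117710758), the ligase that marks p53 for degradation and is itself a p53 target, ran from 8.13 to 8.68 in sham mice at 1 day, with a median of 8.45. In smoke mice it ran from 8.30 to 8.83, with a median of 8.61. The groups overlapped widely, and 17 of 20 smoke mice lay above the mean of their matched sham group. The difference was small, 0.13 ± 0.04 (1.10-fold, limma adjusted p = 0.013). Its size was 0.12 in WT and 0.15 in βENaC mice.

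Trp53inp1 (NM_001199105, chr4:11156441-11174379) encodes a stress-induced nuclear protein that acts with p53 and in autophagy. It ran from 8.21 to 9.38 in sham mice at 1 day, with a median of 8.84, and from 8.62 to 9.40 in smoke mice, with a median of 9.09. Here too the ranges overlapped, and 17 of 20 smoke mice lay above their matched sham mean. The difference was 0.21 ± 0.07 (1.16-fold, limma adjusted p = 0.036), and in the 4 pairs of groups matched for genotype and sex it lay between 0.17 and 0.23. The call was the least stable of the 3: it was lost when any 1 of 12 mice was left out, with adjusted p between 0.0510 and 0.0590 in those fits, and under quantile normalization (0.0605), cyclic loess normalization (0.0563) or 1 fit over all mice (0.0681). The 12 mice were βENaC smoke-exposed females 1 and 2 and males 2 and 4, WT smoke-exposed females 1, 2 and 3, WT sham females 2 and 3, WT sham male 1, βENaC sham female 2 and βENaC sham male 1, by replicate number.

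**Figure D1:**
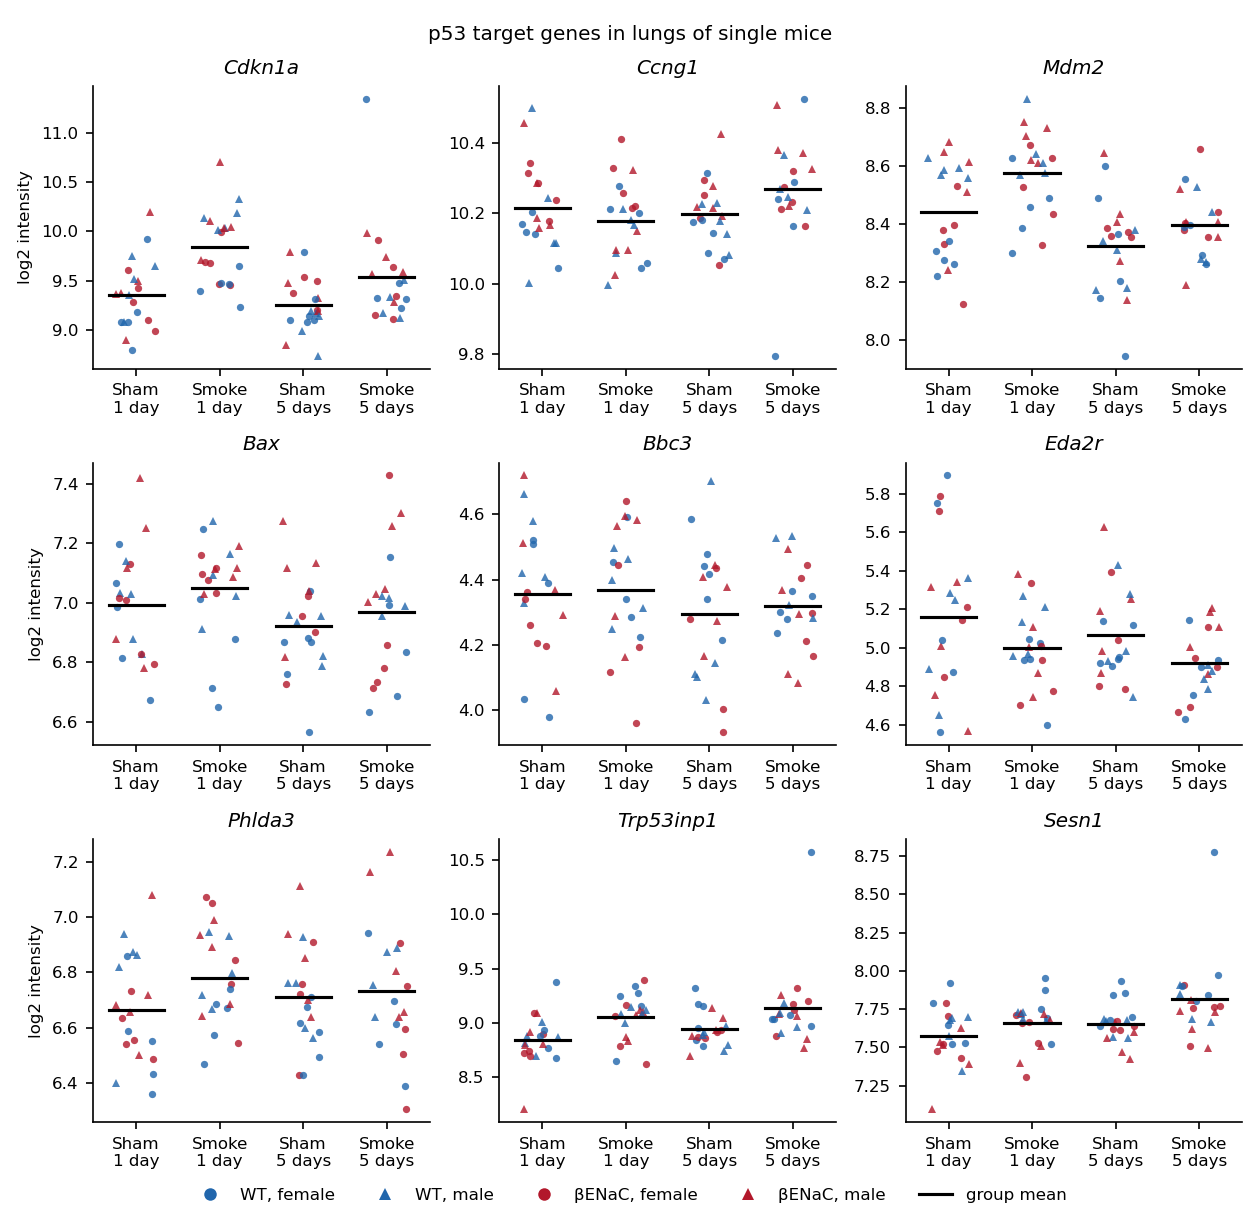
Log2 intensity of the 9 p53 target genes in single mice, by exposure and duration; each point is 1 mouse, with colour for genotype and shape for sex, the black line is the mean of the 19 or 20 mice, and each panel has its own axis. At 1 day the smoke mice sit higher for Cdkn1a, and at 5 days 1 WT female lies far above the rest for Cdkn1a (11.34), Trp53inp1 (10.57) and Sesn1 (8.78) and below the rest for Ccng1 (9.80).

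The other 6 genes did not pass the test at 1 day. Of the cell cycle genes, Ccng1 (NM_009831, chr11:40748552-40755309), cyclin G1, which works with Mdm2 to restrain p53, differed by −0.04 ± 0.04. Its median was 10.18 in sham and 10.19 in smoke mice, and the highest values were 10.50 and 10.41, so the groups lay on top of each other. The 2 genes that promote apoptosis through the mitochondria also lay close to 0. Bax (NM_007527, chr7:45461695-45466903), which permeabilises the outer mitochondrial membrane, differed by 0.06 ± 0.05, and Bbc3 (NM_133234, chr7:16308398-16318334), the BH3-only protein Puma, by 0.01 ± 0.06. The 1-day group means of Bbc3 were 4.27 to 4.48, beside array medians of 4.44 to 4.55. Small differences of such dim probes can be compressed, and detection calls were not used. Eda2r (NM_001161432, chrX:97333837-97377234), a receptor of the TNF receptor superfamily, had the only other negative difference, −0.16 ± 0.10, with a wide spread in sham mice (4.56 to 5.89) that held the whole range of smoke mice (4.60 to 5.38). Phlda3 (NM_013750, chr1:135766085-135769134), which represses Akt signalling, differed by 0.12 ± 0.05 (limma adjusted p = 0.19), and Sesn1 (NM_001013370, chr10:41810574-41908436), sestrin 1, which limits mTORC1 signalling and oxidative damage, by 0.09 ± 0.05 (0.29).

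Other gene groups moved at 1 day beside these. Of 12 targets of AHR and NRF2, the factors that sense aromatic hydrocarbons and oxidants, 11 rose. Of 9 glucocorticoid-response genes 4 rose with smoke (Mt2, Zbtb16, Fkbp5 and Mt1), and the mean level of the 9 ran from 8.14 to 9.01 in sham and from 8.23 to 9.34 in smoke mice. Of 8 measured targets of ATF4, the factor of the integrated stress response, 3 rose (Psat1, Chac1 and Vldlr). Of 6 monocyte markers 3 fell, and their mean level ran from 7.44 to 8.97 in sham and from 7.31 to 8.16 in smoke mice. Of 5 neutrophil markers 1 fell. Of 17 cell division genes none passed in either direction (limma), and 1 had an unadjusted p below 0.05. The part of these groups in the differences of Cdkn1a, Mdm2 and Trp53inp1 was not tested.

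After 5 days of smoke, none of the 9 genes passed the limma test, against 6.53% of all rows. At an unadjusted p below 0.05 there were 4 genes, against 18.2% of all rows, and an ordinary linear model likewise called none after adjustment. The median difference over the 9 was 0.07, against −0.00 over all rows, and 8 of 9 were above 0. Cdkn1a ran from 8.74 to 9.79 in the 20 sham mice, with a median of 9.19. In the 19 smoke mice it ran from 9.11 to 11.34, with a median of 9.34. The groups overlapped, and 14 of 19 smoke mice lay above their matched sham mean. The difference was 0.27 ± 0.13 (limma adjusted p = 0.23), and without the WT female that stood apart it was 0.16 ± 0.08 (0.29). Trp53inp1 differed by 0.20 ± 0.09 (0.20), and by 0.11 ± 0.05 (0.19) without that mouse. Mdm2 differed by 0.07 ± 0.05 (0.50; 0.48 without that mouse).

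Sesn1 was the gene closest to a call at 5 days. It ran from 7.42 to 7.93 in sham mice, with a median of 7.65, and from 7.49 to 8.78 in smoke mice, with a median of 7.77. The groups overlapped, but 17 of 19 smoke mice lay above their matched sham mean. The difference was 0.17 ± 0.06 (1.13-fold, limma adjusted p = 0.051). Without the WT female that stood apart, Sesn1 was smaller in difference and narrower in error, 0.12 ± 0.03, and passed the test (0.022), as the only one of the 9 genes, against 5.96% of all rows. It also passed without any 1 of 9 other mice (adjusted p 0.0221 to 0.0493). Eda2r again differed in the negative direction, −0.15 ± 0.06 (0.17; 0.18 without that mouse), with 4 of 19 smoke mice above their matched sham mean. Among the marker lists at 5 days, 3 of 3 measured erythroid genes rose, 4 of 6 monocyte markers fell and 3 of 9 glucocorticoid-response genes rose. Their part in these values was not tested.

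The change from 1 to 5 days was tested in 1 fit over all mice, as the smoke difference at 5 days minus that at 1 day. None of the 9 genes passed (limma), 1 had an unadjusted p below 0.05 (12.5% of all rows had), and 1.49% of all rows passed. For Cdkn1a the value was −0.21 ± 0.16 (limma adjusted p = 0.65), and −0.32 ± 0.13 (0.21) without the WT female that stood apart. The passing of Cdkn1a, Mdm2 and Trp53inp1 at 1 day and not at 5 days is therefore not shown to be a difference between durations.

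**Figure D2:**
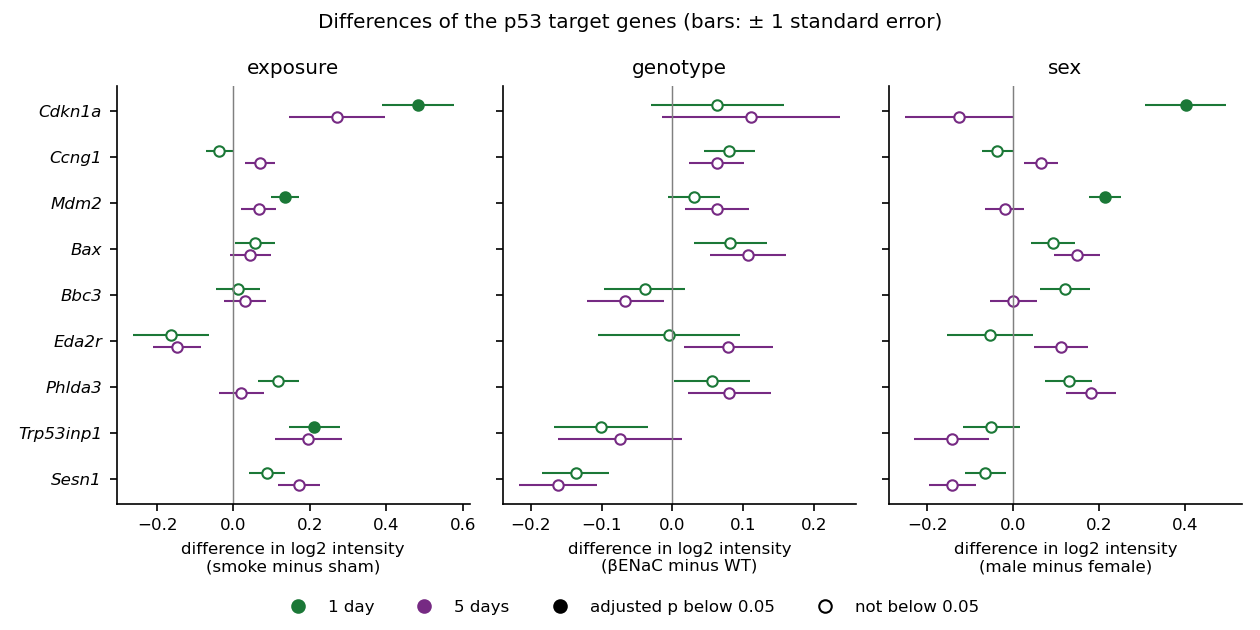
Differences of the 9 genes in log2 intensity for exposure, genotype and sex at 1 day (green) and 5 days (purple), with bars of 1 standard error from the linear model and filled points for an adjusted p below 0.05. The 5 filled points are all at 1 day: Cdkn1a, Mdm2 and Trp53inp1 for exposure, and Cdkn1a and Mdm2 for sex.

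None of the 9 genes passed for genotype at 1 day or at 5 days (limma), against 5.87% and 10.2% of all rows. The counts at an unadjusted p below 0.05 were 2 and 1, against 17.4% and 22.5% of all rows, and an ordinary linear model called none after adjustment. Sesn1 came closest, with βENaC minus WT differences of −0.14 ± 0.05 after 1 day and −0.16 ± 0.06 after 5 days, for which limma gave adjusted p values of 0.085 and 0.054. At 5 days it ran from 7.56 to 8.78 in WT and from 7.42 to 7.91 in βENaC mice, and 2 of 19 βENaC mice lay above the mean of the WT mice of the same exposure and sex. Without the WT female that stood apart the difference of Sesn1 was −0.12 ± 0.03 and passed (0.020), against 10.5% of all rows, as it did without any 1 of 9 other mice (0.0420 to 0.0488). Cdkn1a differed by 0.11 ± 0.13 between genotypes at 5 days with that mouse and by 0.21 ± 0.08 (0.081) without it. Of 5 alveolar macrophage markers 3 were higher and 1 lower in βENaC mice at both times. Both measured club cell markers were lower at both times, with differences of −0.29 and −0.39 for Cyp2f2 and −0.06 and −0.07 for Scgb1a1. The part of these markers in the Sesn1 value was not tested. In the test of whether the smoke response differed between genotypes, none of the 9 genes passed (limma), and 0 had an unadjusted p below 0.05 at either time. Over all rows 0.00638% passed that test at 1 day and 0% at 5 days, with 6.98% and 3.82% at an unadjusted p below 0.05. The genotype difference at 5 days minus that at 1 day called none of the 9 genes (limma; 0 at an unadjusted p below 0.05), as it called 0% of all rows (6.07% unadjusted).

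At 1 day Cdkn1a and Mdm2 were higher in males than in females, 2 of 9 genes, against 9.89% of all rows in either direction and 7.82% with males higher. Cdkn1a ran from 8.79 to 9.99 in the 20 females, with a median of 9.44, and from 8.90 to 10.71 in the 20 males, with a median of 9.88. Among males 10 of 20 lay above every female, most of them smoke-exposed, and the difference was 0.40 ± 0.09 (1.32-fold, limma adjusted p = 0.0034), past the 1.3-fold threshold that 0.845% of all rows passed. It passed the test but not that threshold after quantile (0.36) or cyclic loess normalization (0.37), and without replicate 2 of the βENaC smoke-exposed males (0.37) or replicate 1 of the βENaC sham males (0.37). The male excess of Cdkn1a was 0.26 in WT and 0.18 in βENaC sham mice, and 0.69 and 0.46 in the smoke mice. Mdm2 ran from 8.13 to 8.67 in females, with a median of 8.38, and from 8.24 to 8.83 in males, with a median of 8.61. For Mdm2, 19 of 20 males lay above the mean of females of the same genotype and exposure, and the difference was 0.21 ± 0.04 (1.16-fold, 0.00011). In the 4 matched pairs of groups the male excess of Mdm2 lay between 0.17 and 0.31, sham groups included. Trp53 itself was also higher in males at 1 day, by 0.15 ± 0.04 (0.0090).

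At 5 days none of the 9 genes passed the test between the sexes (limma), against 0.616% of all rows. At an unadjusted p below 0.05 there were 3, against 11.3% of all rows, and an ordinary linear model called none after adjustment. Cdkn1a differed by −0.13 ± 0.13, males minus females, and by −0.04 ± 0.08 without the WT female that stood apart. Mdm2 differed by −0.02 ± 0.05 with and without that mouse. The sex difference at 5 days minus that at 1 day, a contrast added after the 1-day result was seen, was −0.23 ± 0.06 for Mdm2 (limma adjusted p = 0.034), and 0.654% of all rows passed it. For Cdkn1a it was −0.53 ± 0.16 (0.10), and −0.44 ± 0.13 (0.078) without the WT female that stood apart. Mdm2 without that mouse gave −0.24 ± 0.06 (0.030). The Mdm2 call was not kept when arrays were centred on their medians (0.085) or normalized by quantiles (0.076) or cyclic loess (0.069), nor without replicate 5 of the WT smoke-exposed females at 1 day (0.0507) or replicate 5 of the WT sham females at 5 days (0.0506). The male and female mice differed in other groups at 1 day too. Of 12 AHR and NRF2 targets 6 were higher in males, as were 2 of 4 fibroblast and 2 of 4 alveolar type 1 markers, while 1 of 5 neutrophil markers was lower. The part of these in the sex difference of Cdkn1a and Mdm2 was not tested. The test of the smoke response between sexes called none of the 9 genes at either time (limma), with 0 at an unadjusted p below 0.05, against 0.00638% of all rows at 1 day and 0% at 5 days (6.33% and 3.46% unadjusted).

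**Figure D3:**
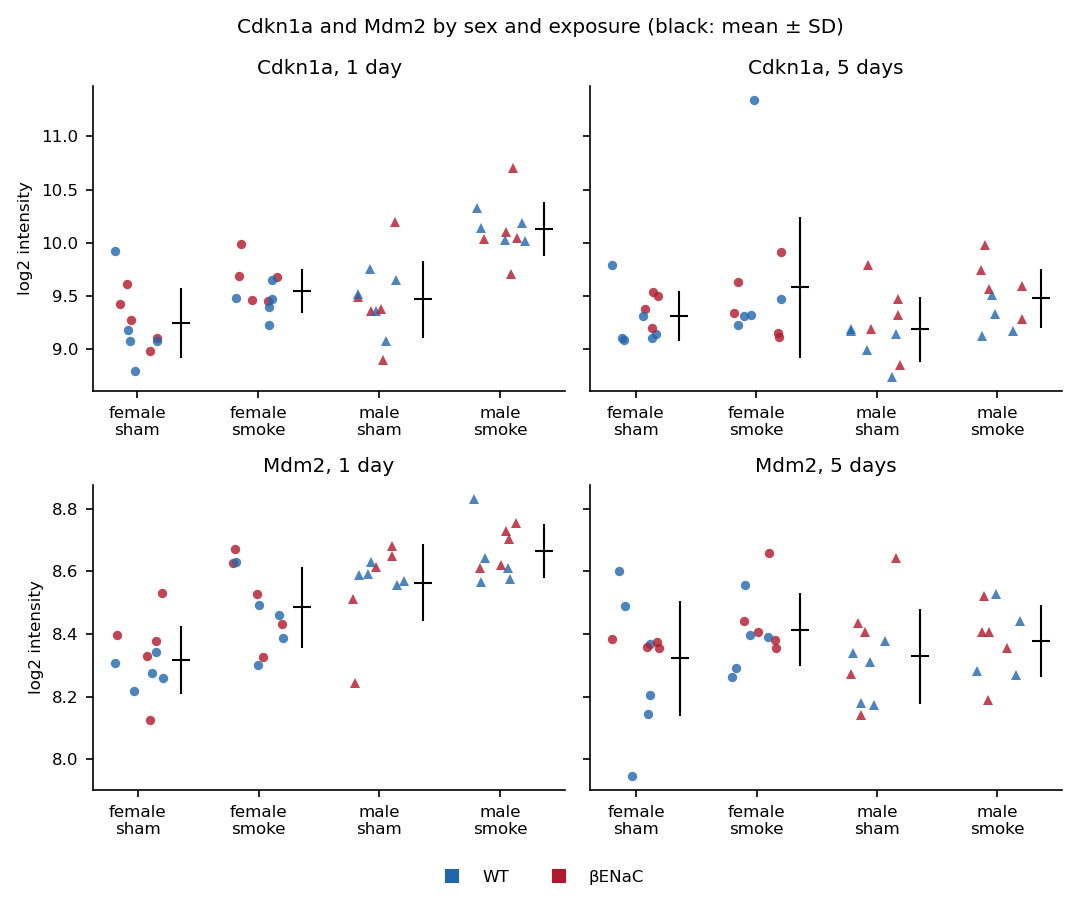
Log2 intensity of Cdkn1a (top) and Mdm2 (bottom) in single mice by sex and exposure at 1 day (left) and 5 days (right), with colour for genotype and the mean ± SD of each set of 9 or 10 mice in black. At 1 day both genes are higher in males and in smoke mice, with the male smoke mice highest, while at 5 days the sexes overlap and 1 WT smoke-exposed female stands at 11.34 for Cdkn1a.

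Among mice of the same group, most pairs of the 9 genes were only weakly related. After the mean of each of the 16 groups was removed, Pearson's r over 79 mice had a median of 0.08 across the 36 pairs, from −0.50 to 0.88, and 23 pairs were above 0. These correlations are descriptions across arrays that share a platform and normalization. The closest pair was Trp53inp1 and Sesn1 (r = 0.88, Spearman's rho = 0.81), and without the WT female that stood apart r was 0.81. The next was Bax and Phlda3 (r = 0.59; 0.57 without that mouse). Trp53inp1 and Sesn1 ran opposite to Ccng1 (r = −0.50 and −0.48), Phlda3 (−0.48 and −0.46) and Bax (−0.43 and −0.38). Without that mouse the values against Ccng1 were −0.26 for both, while those against Phlda3 and Bax moved by little (−0.48 and −0.44, −0.42 and −0.34). Cdkn1a was positively related to Trp53inp1 over 79 mice (r = 0.22), and the sign turned without that mouse (−0.36 over 78 mice), when Cdkn1a ran with Bax instead (0.52, against 0.28 with it). Mdm2 was related to Cdkn1a only weakly, at 0.16 over 79 mice and 0.28 over 78.

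**Figure D4:**
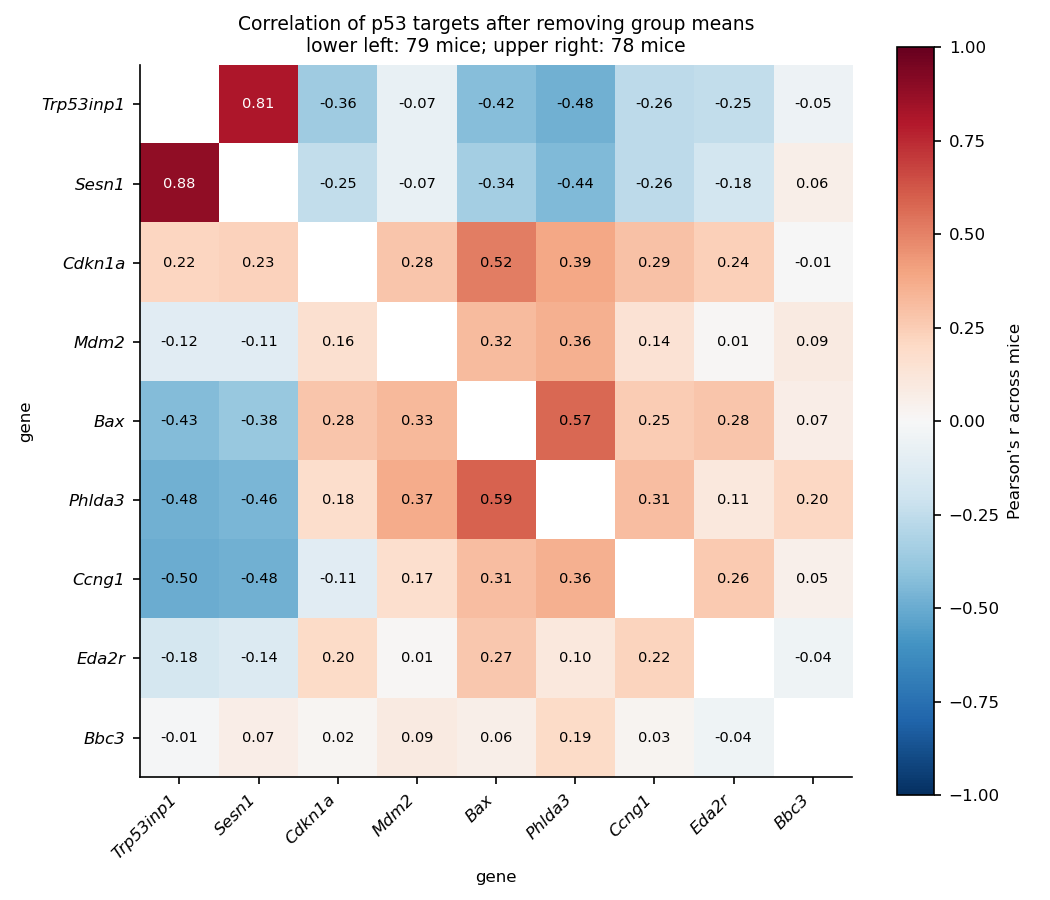
Pearson's r between pairs of the 9 genes across mice after the means of the 16 groups were removed, over 79 mice in the lower left and over 78 mice, without 1 WT smoke-exposed female at 5 days, in the upper right. Trp53inp1 and Sesn1 form 1 close pair (0.88 and 0.81), and Bax, Phlda3 and Ccng1 run opposite to it, Ccng1 less so without that mouse (−0.26).

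Some of the genes also differed in their relation to gene lists outside the p53 pathway. With the mean of the 9 glucocorticoid-response genes, Trp53inp1 had r = 0.65 and Sesn1 0.57 (0.52 and 0.42 without the WT female that stood apart). Cdkn1a had 0.48 (0.28 without that mouse), while Mdm2 had −0.00, Bax −0.01 and Phlda3 −0.25. With the mean of the 8 ATF4 targets, Bax had r = 0.57, Phlda3 0.48 and Cdkn1a 0.40, while Trp53inp1 had −0.36 and Sesn1 −0.34. With the mean of the 6 monocyte markers, Bax had 0.57 and Trp53inp1 −0.65. The ATF4 and monocyte values are over all mice, with the WT female that stood apart included. Among the mice at 5 days, that mouse had the lowest monocyte mean (6.84, the others from 7.34) and the highest Trp53inp1. These lists hold none of the genes described, and the values say only which mice were high together.

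Of all rows with a symbol, the 3 most like each gene that rose at 1 day were named. For Cdkn1a they were Tspan11 (r = 0.78), Pla1a (0.77) and Ampd3 (0.76), and these fell to 0.71, 0.68 and 0.58 without the WT female that stood apart. For Mdm2 they were Slc31a2 (0.69), Efcab14 (0.68) and Vps33b (0.67). For Trp53inp1 they were Sesn1, then Lpin2 (0.83), a phosphatidate phosphatase, and Arrdc2 (0.82), an arrestin-domain protein. Without that mouse Lpin2 had 0.77 and Arrdc2 0.66.

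A wider list of p53 targets showed a split direction with smoke. Of 53 further targets 48 had a row, and at 1 day 9 rose, 5 fell and 34 did not pass, with a median difference of 0.03 against 0.01 over all rows, of which 5.03% rose and 4.43% fell. None of the 48 passed the 1.3-fold threshold. Among 7 cell cycle genes, Gadd45a, which binds PCNA and slows the cycle after damage, rose by 0.17 ± 0.05, while the polo-like kinase Plk2 fell by 0.23 ± 0.06. Among 10 cell death genes, Tnfrsf10b, a receptor for the death ligand TRAIL, rose by 0.31 ± 0.09 and Perp, a membrane protein of desmosomes and apoptosis, by 0.23 ± 0.07. Of 5 DNA repair genes, Xpc rose by 0.15 ± 0.04 and Ercc5 by 0.15 ± 0.03. The rest of that list did not pass: Rrm2b differed by −0.08 ± 0.04, Polk by 0.04 ± 0.03 and Ddb2 by −0.003 ± 0.050.

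Among 9 metabolic and redox targets at 1 day, Sesn2, sestrin 2, rose by 0.26 ± 0.06 (limma adjusted p = 0.0015) and the thiamine transporter Slc19a2 by 0.26 ± 0.04 (0.00011). In the same list the metalloreductase Steap3 fell by 0.18 ± 0.05 and the adenylate kinase Ak1 fell by 0.17 ± 0.04. Among the remaining 17, Tgfa, a ligand of the EGF receptor, rose by 0.31 ± 0.06 (0.00028) and the RNA-binding protein Zmat3 by 0.20 ± 0.05, while the peptide transporter Tap1 fell by 0.19 ± 0.06 and the tetraspanin Cd82 fell by 0.10 ± 0.03.

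At 5 days 4 of the 48 rose and 3 fell, against 6.53% of all rows in either direction, and 7 in all passed without the WT female that stood apart. Perp had the largest rise, 0.40 ± 0.07 (1.32-fold, limma adjusted p = 6.5e-05), and was the only one past 1.3-fold. Slc19a2 rose by 0.22 ± 0.05, Abhd4 by 0.17 ± 0.04 and the translesion polymerase Polk by 0.14 ± 0.04. Plk2 fell by 0.37 ± 0.06, Bid, which links death receptors to mitochondria, fell by 0.25 ± 0.06, and Steap3 fell by 0.18 ± 0.06. Thus Perp and Slc19a2 rose at both times and Plk2 and Steap3 fell at both times, in separate sets of smoke and sham mice. Tnfrsf10b was the only one of the 48 whose smoke difference changed with duration by the test, by −0.43 ± 0.12 (0.036).

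**Figure D5:**
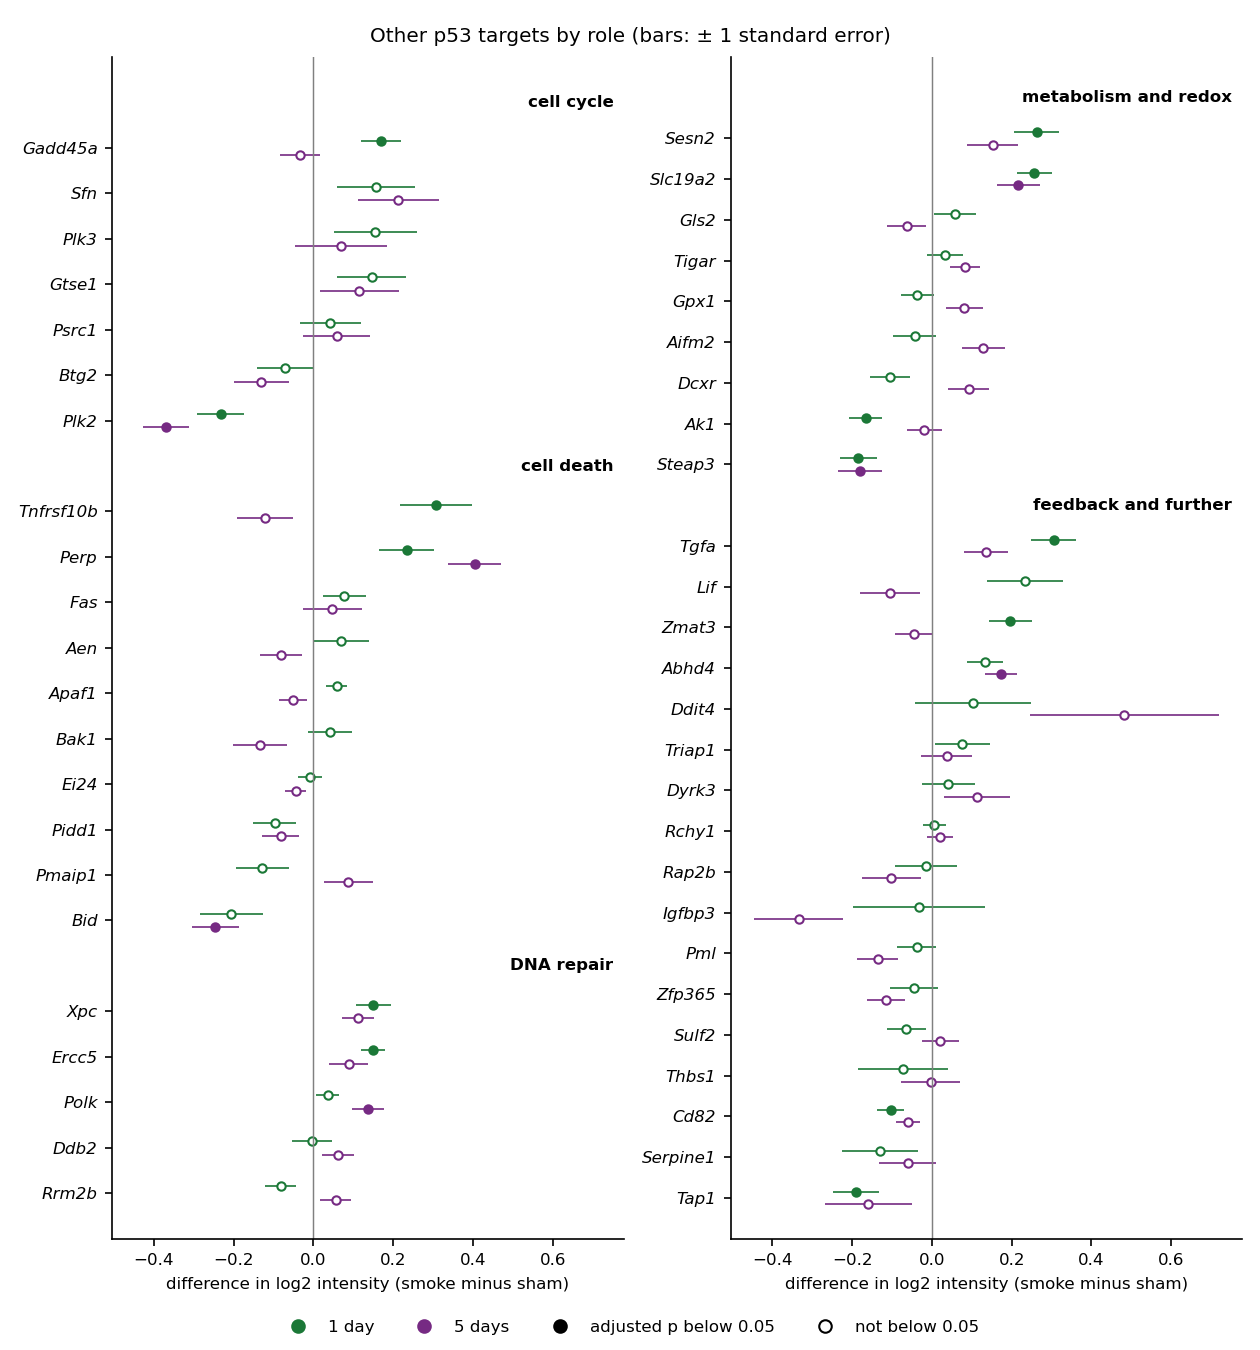
Smoke minus sham difference in log2 intensity of the 48 other p53 targets with a row, by role, at 1 day (green) and 5 days (purple), with bars of 1 standard error and filled points for an adjusted p below 0.05. Filled points lie on both sides of 0 at each time: 9 above and 5 below at 1 day, 4 above and 3 below at 5 days.

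With genotype, 5 of the 48 were higher and 3 lower in βENaC mice at 1 day, and 6 and 5 at 5 days, against 5.87% and 10.2% of all rows. Without the WT female that stood apart 10 passed at 5 days. Igfbp3, which binds insulin-like growth factors, was lower by 1.20 on the log2 scale at 1 day (difference −1.20 ± 0.17) and differed by −1.01 ± 0.11 at 5 days. The polo-like kinase Plk3 was higher by 0.43 ± 0.10 and 0.43 ± 0.12. With sex at 1 day, 7 of the 48 were higher in males and none lower (limma), against 9.89% of all rows in either direction, among them Igfbp3 (0.68 ± 0.17), Thbs1 (0.45 ± 0.11), Tgfa (0.29 ± 0.06) and Abhd4 (0.21 ± 0.05). At 5 days none of the 48 passed between the sexes (limma), with 6 at an unadjusted p below 0.05, against 11.3% of all rows.

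Of p53 and its regulators, 3 of 16 passed the test for smoke at 1 day, against 9.45% of all rows, and 1 at 5 days, against 6.53%. Trp53 (NM_001127233, chr11:69580348-69591873) ran from 8.09 to 8.56 in sham and from 7.97 to 8.51 in smoke mice at 1 day, almost the same range, and differed by 0.02 ± 0.04 (limma adjusted p = 0.79). The mean 1-day difference was −0.07 in WT and 0.12 in βENaC mice. No test of the smoke response between genotypes is given here for Trp53, and 0.00638% of all rows passed that test at 1 day. At 5 days Trp53 differed by −0.11 ± 0.04 (0.096). Of the 16 genes of this list, the acetyltransferase Ep300 rose by 0.11 ± 0.02 at 1 day, while the damage kinase Atr fell by 0.13 ± 0.03 and Trp53bp1 fell by 0.15 ± 0.04. At 5 days Trp53bp1 fell by 0.12 ± 0.04 and none rose. Among 11 close relatives of the genes described, the p21 relative Cdkn1b rose by 0.17 ± 0.05 at 1 day and 0.19 ± 0.04 at 5 days. The BH3-only gene Bmf rose by 0.18 ± 0.04 at 1 day. At 5 days Cdkn1c rose by 0.28 ± 0.07, and Phlda1 fell by 0.18 ± 0.05.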

How the data were processed

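Whole-lung RNA of 79 mice (250 ng each) was hybridised to Affymetrix mouse gene arrays on a single plate. Per the labels the authors used Affymetrix Expression Console 1.4, RMA and Partek 6.6, and the deposited table holds RMA-normalized log2 intensities, between 1.98 and 13.41. RMA corrects background and forces arrays to a common distribution, which can compress small differences of dim probes. Detection calls were not used here. Precision depends on how many arrays each group has.

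Of 31350 rows, 21837 were given a symbol, 2537 from the study's tables and 19300 from the RefSeq gene table through transcript identifiers, and the highest-mean row was taken per symbol. Authors' comparison columns in the study's tables (coefficients and q-values) were not used. All columns of the table were mapped to samples by title. Whether mice of a group shared a cage or litter is not given in the sources used here.

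Values were tested as deposited with limma 3.58.1 in R 4.3.3, separately at 1 and 5 days with exposure, genotype and sex as additive terms, with interactions of exposure with genotype and sex in a second fit, and with duration terms in a fit over all mice. The Benjamini-Hochberg adjustment of each comparison covered every row. The exposure test was checked on simulated data with planted smoke differences, which were larger than those of Mdm2 and Trp53inp1. No genotype, sex or duration difference was planted. The genes named are the 10 p53 targets, Trp53, Scnn1b, up to 4 genes per further list and comparison that passed with the largest differences, and the 3 genes most correlated with each target called for exposure. The genes and lists were chosen with earlier results of these data known. Alternatives were an ordinary linear model, other normalizations, filters, weights and priors, a replicate block, and each mouse left out.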

Additional observations from a re-analysis of the deposited data

Results flagged for a closer look

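In 11 of the 144 sets of 1 gene and 1 group, 1 mouse lay far from the rest of its group by the gap to its nearest neighbour as a share of the range; chance alone marks about 1 group in 20. Among WT smoke-exposed females at 5 days, replicate 2 was high for Cdkn1a (11.34, the others up to 9.47), Trp53inp1 (10.57, the others up to 9.08) and Sesn1 (8.78, the others up to 7.97). Among βENaC smoke-exposed females at 5 days, replicate 3 was high for Mdm2 (8.66, the others up to 8.44) and Bax (7.43, the others up to 6.86). Replicate 3 of the WT sham females at 5 days was high for Cdkn1a (9.79, the others up to 9.32), and replicate 4 of the WT sham males at 5 days for Bbc3 (4.70, the others up to 4.14).

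At 1 day, replicate 5 of the WT smoke-exposed males was high for Mdm2 (8.83, the others up to 8.64). Replicate 5 of the WT smoke-exposed females was low for Trp53inp1 (8.65, the others from 9.16), replicate 1 of the same group was low for Eda2r (4.60, the others from 4.94), and replicate 3 of the WT sham males was low for Phlda3 (6.40, the others from 6.82).

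The sex difference of Mdm2 differed between durations by the test of the difference itself (−0.23, 5 days minus 1 day, limma adjusted p = 0.034). This contrast was added after the 1-day result was seen. The call was not kept when arrays were centred on their medians or normalized by quantiles or cyclic loess.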

How the results depend on the processing

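No direction of a called gene reversed under any alternative. Of 1260 values of single genes under alternatives other than leaving out 1 mouse, 1239 kept their side of the threshold, 7 lost and 14 gained a call. With the 1.3-fold threshold added, 1 gene remained called for exposure at 1 day, 1 for sex at 1 day (0 after quantile or cyclic loess normalization), and 0 for sex by duration. For exposure at 5 days, 1 gene (Sesn1) was called with 1 fit over all mice, arrays centred on their median, the lowest 30% of rows omitted, 1 row per symbol, array weights, or a trended robust prior, and 2 (Sesn1 and Ccng1) when the 5 mice outlying in their group for Cdkn1a, Mdm2 or Trp53inp1 were left out together, a setting chosen after seeing the data. For genotype at 5 days, 1 gene (Sesn1) was called with 1 fit over all mice, the omitted rows, 1 row per symbol and the trended robust prior, and 2 (Sesn1 and Cdkn1a) without those 5 mice. For sex by duration 0 were called after centring, quantile or cyclic loess normalization, or without those 5 mice. Leaving out 1 mouse gave 2 to 3 called genes for exposure and 2 for sex at 1 day, 0 to 1 for genotype at 1 day, for exposure and for genotype at 5 days, and for sex by duration, and 0 elsewhere. Sesn1 gained its call at 5 days, for both exposure and genotype, without replicate 1, 2 or 3 of the WT smoke-exposed females, 4 or 5 of the WT smoke-exposed males, or 1 or 4 of the βENaC sham males. It did so for exposure alone without βENaC smoke-exposed female 3, WT sham female 3 or βENaC smoke-exposed male 2, and for genotype alone without βENaC smoke-exposed female 1, WT sham female 1 or βENaC smoke-exposed male 1. At 1 day it gained a genotype call without βENaC sham female 1, WT sham male 1 or WT smoke-exposed female 5. Replicate numbers only name mice and do not pair them, and a replicate block changed no call (3 for exposure, 2 for sex at 1 day, 1 for sex by duration). Each gene had 1 row, so no other row per gene could be tried.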
